A study of Mus musculus with 14 samples.

Results

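Collagens and laminins are the chains from which the extracellular matrix is built. Here, the mRNA of 30 collagen and laminin chain genes was followed in mouse embryonic stem cells (ESCs) with and without the long noncoding RNA Trincr1. The members were all protein-coding genes named as a numbered collagen or laminin chain whose mean over the 8 RNA-seq samples was above 0.2 FPKM, a read level corrected for transcript length and sequencing depth. Of 55 such genes in the table, 30 passed this cutoff, 21 of 44 collagen chains and 9 of 11 laminin chains, among 15430 genes that passed it in all. The cutoff used the level and no comparison between groups.

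The ESCs came from crosses of C57BL/6(F) with 129/sv(M) mice and were wild type or Trincr1-/-, and 2 samples were sequenced for each genotype in each medium. The 2i + LIF medium contained the MEK inhibitor PD0325901 (1.0 μM), the GSK3 inhibitor CHIR99021 (3.0 μM) and LIF (1000 units per ml), and the ESCs grew on plates coated with 0.1% gelatin, itself a collagen product. For PD + LIF, ESCs were plated for 24 h in 2i + LIF and then kept for 4 days without CHIR99021, so the MEK inhibitor was present in every group. Trincr1-/- ESCs were made with Cas9 and a pair of guide RNAs that flank exons 2–4, and which clone was sequenced is not stated. The p-values by genotype below measure the spread between samples, so a difference between clones cannot be told apart from loss of Trincr1. RNA bound to TRIM71, the protein partner of Trincr1, was measured in another experiment, by FLAG immunoprecipitation after UV crosslinking of ESCs with extra 3XFLAG-Trim71, grown in 2i + LIF. The samples are labelled as biological replicates.

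Laminins are cross-shaped heterotrimers of an α, a β and a γ chain that assemble into the first sheet of a basement membrane, and collagen IV then forms a covalent network on that sheet. Fibrillar collagens instead pack into the fibrils of connective tissue and cartilage, and FACIT collagens sit on the surface of those fibrils. ESCs and the early epiblast make laminin and collagen IV and bind laminin through integrins.

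The samples carried the mRNA profile of ESCs. Pou5f1, the gene of Oct4, was between 354 and 726 FPKM in all 8 samples, and the summed level of 6 pluripotency markers was 1667 to 1706 FPKM in 2i + LIF against 901 to 1126 FPKM in PD + LIF. Sox2 went the other way in wild-type ESCs, with a mean of 146 FPKM in 2i + LIF and 179 FPKM in PD + LIF. Gm2694, the gene of Trincr1, was at 5.71 and 9.45 FPKM in wild-type ESCs in 2i + LIF and at 0.0754 and 0 FPKM in Trincr1-/- ESCs. Their levels in PD + LIF were 6.18 and 6.56 FPKM in wild-type and 1.38 and 0.746 FPKM in Trincr1-/- ESCs. Residual reads at the locus were thus seen in the Trincr1-/- samples in PD + LIF. The steps between low FPKM values placed the depth at 7.89 to 10.8 M fragments per sample, without a correction for fragment length.

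The sequences around annotated start sites are shown first for members that rose in Trincr1-/- ESCs or that lie head to head. RefSeq start-site windows, of 250 bases before and 50 after each annotated start, were found for 19 of the 30 members (22 windows, GRCm38.p6). Col4a1 and Col4a2, which encode the chains of the common collagen IV, lie head to head on chromosome 8, with Col4a2 on the plus strand (11312805 to 11449287) and Col4a1 on the minus strand (11198423 to 11312826). Their annotated start sites overlap by 22 bases, printed in capitals here, so 1 window holds both starts. In the windows of Lamb1 and Col5a1, the capitals mark each GGGCGG or its complement CCGCCC, the GC box.
Col4a2 and Col4a1, chr8:11312555-11312854, plus strand: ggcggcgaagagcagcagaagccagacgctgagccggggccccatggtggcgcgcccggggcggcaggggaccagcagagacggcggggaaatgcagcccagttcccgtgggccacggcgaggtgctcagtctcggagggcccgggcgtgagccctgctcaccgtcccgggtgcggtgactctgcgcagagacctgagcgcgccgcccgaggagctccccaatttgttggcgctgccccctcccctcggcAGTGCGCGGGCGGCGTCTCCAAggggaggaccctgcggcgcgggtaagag
Lamb1, chr12:31265043-31265342, plus strand: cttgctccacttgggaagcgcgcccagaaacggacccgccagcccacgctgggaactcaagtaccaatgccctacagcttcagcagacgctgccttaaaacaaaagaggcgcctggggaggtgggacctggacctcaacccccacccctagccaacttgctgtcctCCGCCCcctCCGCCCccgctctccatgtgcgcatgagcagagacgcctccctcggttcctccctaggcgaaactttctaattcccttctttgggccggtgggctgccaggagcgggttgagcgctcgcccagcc
Col5a1, chr2:27886175-27886474, plus strand: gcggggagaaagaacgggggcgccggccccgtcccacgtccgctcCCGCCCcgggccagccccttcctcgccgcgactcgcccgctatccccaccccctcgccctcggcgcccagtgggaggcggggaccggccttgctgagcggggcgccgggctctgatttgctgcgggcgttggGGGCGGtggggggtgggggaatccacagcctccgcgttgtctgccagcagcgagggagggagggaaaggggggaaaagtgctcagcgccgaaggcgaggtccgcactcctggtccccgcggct

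The GC box was present on either strand in 15 of the 22 member windows and in 35.7% of 32851 RefSeq windows of the same length. Some member windows share bases, those of Col4a1 with Col4a2, the 2 of Col6a2 and the 2 of Lamb3. GC content was 73.7% in the shared collagen IV window, 63.7% for Lamb1 and 75.0% for Col5a1. Its median was 62% over the member windows, against 52.7% over all windows. CCAAT was found in 10 member windows and 37.4% of all, and the TATA motif TATAAA in 2 and 13.6%. The motif CTTTGA, a core of the sites of TCF/LEF factors, was found in 6 member windows and 16% of all, and in none of the windows printed here. These motifs do not contain each other, and each was searched on both strands. A match of letters is a description of the window and no site of a factor.

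The chain mRNAs of ESCs were led by a single laminin chain. Lamc1, the γ1 chain of most laminins, made up 49.0% and 50.4% of the summed FPKM of the 30 members in wild-type ESCs in 2i + LIF, and 30.5% and 28.5% in PD + LIF. Next in the mean over 8 samples were Col18a1 (31.5 FPKM), the basement membrane collagen from which endostatin is cut, Lama5 (23.2 FPKM), Lamb1 (13.98 FPKM) and Lamb2 (11.4 FPKM). The cutoff kept 4 of 5 laminin α chains, 3 of 3 β chains, 2 of 6 chains of collagen IV, 8 of 11 fibrillar chains, 4 of 9 FACIT chains, 2 of 6 chains of collagen VI, 2 of 4 transmembrane chains, 1 of 2 multiplexins, collagen VII and Col26a1.

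The 25 chains below the cutoff included all 3 short chain network collagens, Col4a3 and Col4a4, Lamc3 and Lama2. Col19a1 and Col28a1 were listed at 0 in every sample. Just inside the cutoff were Col6a2 at 0.247, Lama4 at 0.254 and Col1a2 at 0.255 FPKM, and just outside were Col20a1 and Col11a2 at 0.163 and Col15a1 at 0.143 FPKM. Of the 30 members, 7 passed only through PD + LIF, with a mean of at most 0.2 FPKM over the 2i + LIF samples (Col1a1, Col7a1, Col9a3, Col22a1, Col6a1, Col1a2 and Col6a2), and Lama4 passed only through 2i + LIF. These had to differ between the media, so counts and medians of the medium comparison over the 30 members are given as a description only. Over the wild-type samples of both media, Col1a2 and Col6a2 had means of 0.189 and 0.177 FPKM, against 0.322 and 0.318 FPKM over the Trincr1-/- samples. They thus also passed only through Trincr1-/- samples.

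**Figure D1:**
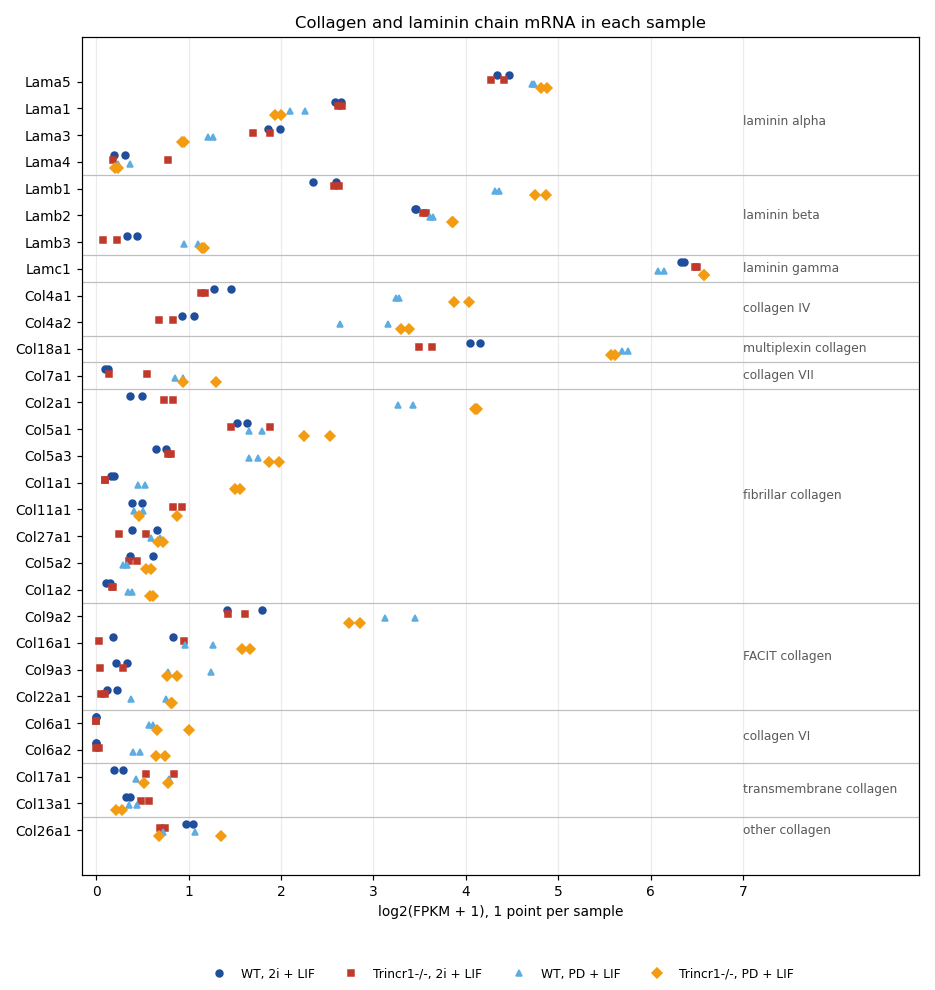
Level of 29 of the chain mRNAs in each of the 8 RNA-seq samples, as log2(FPKM + 1) on the horizontal axis, with 1 point per sample and genes grouped by matrix type. Lamc1 lies furthest to the right in every sample, while Lamb1, Col4a1, Col4a2, Col18a1 and Col2a1 lie further right in the 4 PD + LIF samples than in the 4 samples in 2i + LIF.

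Removing CHIR99021 was accompanied by a change in the composition of the chain mRNAs. In wild-type ESCs, 14 of the 30 members were higher in PD + LIF than in 2i + LIF (30.9% of all 15430 genes tested were higher) and 4 were lower (21.3% of all genes), and the other 12 did not pass (limma on log2(FPKM + 1), Benjamini-Hochberg adjusted over all genes, threshold 0.05). The median difference was 0.35 over the members and 0.08 over all genes on this log2 scale. In Trincr1-/- ESCs, 19 members were higher (29.6% of all genes) and 2 lower (20.3% of all genes), with a median of 0.67 over the members and 0.07 over all genes. These counts and medians include the 7 members that passed the cutoff only through PD + LIF and so had to have a higher mean there. Of those 7, Col1a1, Col7a1, Col9a3, Col6a1 and Col6a2 were among the wild-type calls, and all 7 were among the Trincr1-/- calls. The counts and medians are thus a description only. Adding 1 FPKM before the logarithm understates the change of genes of low level, so the ratio of group means is given as well. In bulk RNA, fewer cells of a type and less RNA per cell cannot be told apart.

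Laminin chains moved in both directions, by chain. Lamb1, the β1 chain, was at 5.06 and 4.10 FPKM in wild-type ESCs in 2i + LIF and at 18.9 and 19.5 FPKM in PD + LIF. In Trincr1-/- ESCs it was at 4.94 and 5.19 FPKM and at 25.9 and 28.3 FPKM. Every PD + LIF sample was above every 2i + LIF sample, and the 4 groups overlapped only between the genotypes in 2i + LIF. The rise was 1.86 ± 0.10 (SE, n = 2 per group) in wild-type and 2.21 ± 0.10 in Trincr1-/- ESCs on the log2 scale (limma adjusted p = 1.57e-05 and 6.22e-06), or 4.19 and 5.35 times the mean in 2i + LIF.

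Lamb2, the β2 chain, showed a narrower range, with 10.02 and 9.97 FPKM in wild-type and 10.6 and 10.9 FPKM in Trincr1-/- ESCs in 2i + LIF. In PD + LIF it was at 11.2 and 11.5 FPKM in wild-type and at 13.4 and 13.5 FPKM in Trincr1-/- ESCs. The ratio of Lamb1 to Lamb2, both per length, went from between 0.412 and 0.505 in 2i + LIF to between 1.69 and 2.09 in PD + LIF, so the leading β chain differed between the media in all 8 samples. Lamb2 rose with the medium by 0.30 ± 0.07 in Trincr1-/- ESCs (limma adjusted p = 0.00745), a call lost with quantile normalization and when samples were scaled to the same median (adjusted p = 0.331), and its difference of 0.17 ± 0.07 in wild-type ESCs did not pass (adjusted p = 0.0662).

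Among the α chains, Lama5 and Lama1 went opposite ways. Lama5, the α5 chain found in many basement membranes, was at 21.1 and 19.3 FPKM in wild-type ESCs in 2i + LIF and at 25.3 and 25.6 FPKM in PD + LIF. The Trincr1-/- samples had 18.3 and 20.3 FPKM in 2i + LIF and 28.5 and 27.2 FPKM in PD + LIF, again without overlap between the media. Lama5 was higher in PD + LIF by 0.32 ± 0.07 in wild-type and by 0.51 ± 0.07 in Trincr1-/- ESCs (limma adjusted p = 0.00824 and 0.00107). The wild-type call was lost with scaling to the same median (0.09, adjusted p = 0.34) and without wild-type replicate 2 in 2i + LIF.

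Lama1, the α1 chain of the laminin of early embryos, was between 4.99 and 5.33 FPKM in the 4 samples in 2i + LIF and between 2.81 and 3.79 FPKM in PD + LIF. It fell by 0.44 on the log2 scale in wild-type and by 0.67 in Trincr1-/- ESCs (limma adjusted p = 0.0101 and 0.00149), and the wild-type call was lost without wild-type replicate 1 in 2i + LIF or replicate 2 in PD + LIF. The ratio of Lama5 to Lama1 was 3.57 to 3.99 in 2i + LIF and 6.68 to 9.65 in PD + LIF. Lama3, an α chain of the laminin under epithelia, was between 2.25 and 2.98 FPKM in 2i + LIF and between 0.907 and 1.40 FPKM in PD + LIF. It fell by 0.69 in wild-type and by 0.85 in Trincr1-/- ESCs (adjusted p = 0.0027 and 0.00106).

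The γ1 chain was lower with the medium in wild-type ESCs. Lamc1 (chromosome 1, 153218922 to 153332786) was at 81.1 and 79.4 FPKM in wild-type ESCs in 2i + LIF and at 69.8 and 66.8 FPKM in PD + LIF. In Trincr1-/- ESCs it was at 88.1 and 89.8 FPKM and at 94.5 and 94.9 FPKM. None of the 4 groups overlapped, and their order was wild type in PD + LIF, wild type in 2i + LIF, Trincr1-/- in 2i + LIF and Trincr1-/- in PD + LIF.

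Lamc1 fell by 0.23 with the medium in wild-type ESCs (SE 0.04, limma adjusted p = 0.00284) and differed by 0.09 ± 0.04 in Trincr1-/- ESCs (adjusted p = 0.113). The wild-type value was -0.13 with quantile normalization and -0.47 with scaling to the same median, and passed in both (adjusted p = 0.0409 and 8.54e-05). The value in Trincr1-/- ESCs turned to -0.14 (adjusted p = 0.0224) when samples were scaled to the same median.

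Lamb3, the β partner of Lama3 in the laminin under epithelia, was between 0.0513 and 0.354 FPKM in 2i + LIF and between 0.935 and 1.25 FPKM in PD + LIF, a rise of 0.64 ± 0.12 in wild-type and 1.01 ± 0.12 in Trincr1-/- ESCs (limma adjusted p = 0.0041 and 0.000515).

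Collagen IV rose with the medium in both genotypes. Col4a1 was at 1.42 and 1.75 FPKM in wild-type and at 1.26 and 1.20 FPKM in Trincr1-/- ESCs in 2i + LIF. In PD + LIF it was at 8.72 and 8.45 FPKM in wild-type and at 15.4 and 13.7 FPKM in Trincr1-/- ESCs. The samples in PD + LIF were all above those in 2i + LIF, with the Trincr1-/- samples above wild type only in PD + LIF. Col4a1 rose by 1.90 ± 0.11 in wild-type and by 2.80 ± 0.11 in Trincr1-/- ESCs (limma adjusted p = 2.06e-05 and 3.87e-06), to 5.43 and 11.8 times the mean in 2i + LIF.

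Col4a2, read from the strand printed above, was at 0.900 and 1.09 FPKM in wild-type and at 0.785 and 0.607 FPKM in Trincr1-/- ESCs in 2i + LIF. In PD + LIF it was at 5.23 and 7.95 FPKM in wild-type and at 9.42 and 8.83 FPKM in Trincr1-/- ESCs. It rose by 1.91 ± 0.18 and 2.58 ± 0.18 (limma adjusted p = 0.000145 and 3.52e-05). The ratio of Col4a1 to Col4a2 lay between 1.06 and 1.98 in the 8 samples, without a separation of the groups. Whether reads were counted by strand is not given in the sources used here, and the annotated genes share only the 22 bases in capitals.

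Col18a1 was the second chain mRNA in PD + LIF. In wild-type ESCs it was at 15.5 and 16.8 FPKM in 2i + LIF and at 50.6 and 53.0 FPKM in PD + LIF. The Trincr1-/- samples had 10.2 and 11.4 FPKM in 2i + LIF and 48.1 and 46.4 FPKM in PD + LIF. The 4 groups did not overlap, with wild type above Trincr1-/- in both media, although the difference of -0.13 ± 0.07 in PD + LIF did not pass (limma adjusted p = 0.285). The rise with the medium was 1.62 ± 0.07 in wild-type and 2.03 ± 0.07 in Trincr1-/- ESCs (limma adjusted p = 8.37e-06 and 2.88e-06).

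Among fibrillar collagens, Col2a1 had the widest range. Col2a1, the collagen of cartilage, was at 0.286 and 0.407 FPKM in wild-type and at 0.659 and 0.776 FPKM in Trincr1-/- ESCs in 2i + LIF. Under PD + LIF it stood at 8.65 and 9.78 FPKM in wild-type and at 16.4 and 16.2 FPKM in Trincr1-/- ESCs. None of the groups overlapped, and the mean in PD + LIF was 26.6 times that in 2i + LIF for wild-type and 22.7 times for Trincr1-/- ESCs. The differences were 2.92 ± 0.11 and 3.33 ± 0.11 on the log2 scale (limma adjusted p = 5.41e-06 and 2.53e-06). Of the 8 fibrillar members, 3 were higher in PD + LIF in wild-type ESCs (Col2a1, Col5a3 and Col1a1) and 5 in Trincr1-/- ESCs (these 3 with Col5a1 and Col1a2), and none was lower. The share of all genes higher was 30.9% and 29.6%, so the wild-type count was near that of genes at large. Col5a3, a chain of collagen V, rose by 1.01 ± 0.12 and 1.13 ± 0.12 in the 2 genotypes. The wild-type call of Col1a1 (0.32, limma adjusted p = 0.0454) held under 6 of 15 alternatives and was lost without any 1 of the wild-type samples or of the Trincr1-/- samples in 2i + LIF. In Trincr1-/- ESCs, Col5a1 was lost without replicate 2 in 2i + LIF or replicate 1 in PD + LIF, and Col1a2 without replicate 2 in 2i + LIF, and quantile normalization ended both calls.

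Of the 4 FACIT members, Col9a2 and Col9a3, chains of the collagen IX that coats collagen II fibrils, were higher in PD + LIF in both genotypes, and Col16a1 and Col22a1 passed in Trincr1-/- ESCs and not in wild-type ESCs, with an interaction that did not pass (limma adjusted p = 0.589 and 0.435). Col9a2 was between 1.68 and 2.47 FPKM in 2i + LIF, between 7.75 and 9.92 FPKM in wild-type and between 5.66 and 6.25 FPKM in Trincr1-/- ESCs in PD + LIF. Col6a1 and Col6a2, neighbours on chromosome 10 that encode chains of the beaded filaments of collagen VI, were listed at 0 in 4 and 3 of the 4 samples in 2i + LIF. In PD + LIF, Col6a1 was between 0.481 and 1.01 FPKM and Col6a2 between 0.321 and 0.680 FPKM, values that rest on at most about 37.2 and 30.1 fragments. Both were called in each genotype, and both are among the genes that passed the cutoff through PD + LIF. The Trincr1-/- calls of Col16a1 and Col9a3 were lost with quantile normalization and without either PD + LIF replicate or replicate 1 in 2i + LIF, that of Col16a1 also with log2(FPKM + 0.1), without a filter on low values and with only the 4 samples compared, that of Col7a1 without replicate 2 in 2i + LIF or replicate 1 in PD + LIF, and the wild-type call of Col9a3 without replicate 2 in 2i + LIF. Col7a1, of the fibrils that anchor epidermis, was called in each genotype as well, and the transmembrane chains Col13a1 and Col17a1, Col26a1, Col11a1, Col27a1, Col5a2 and Lama4 in neither.

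**Figure D2:**
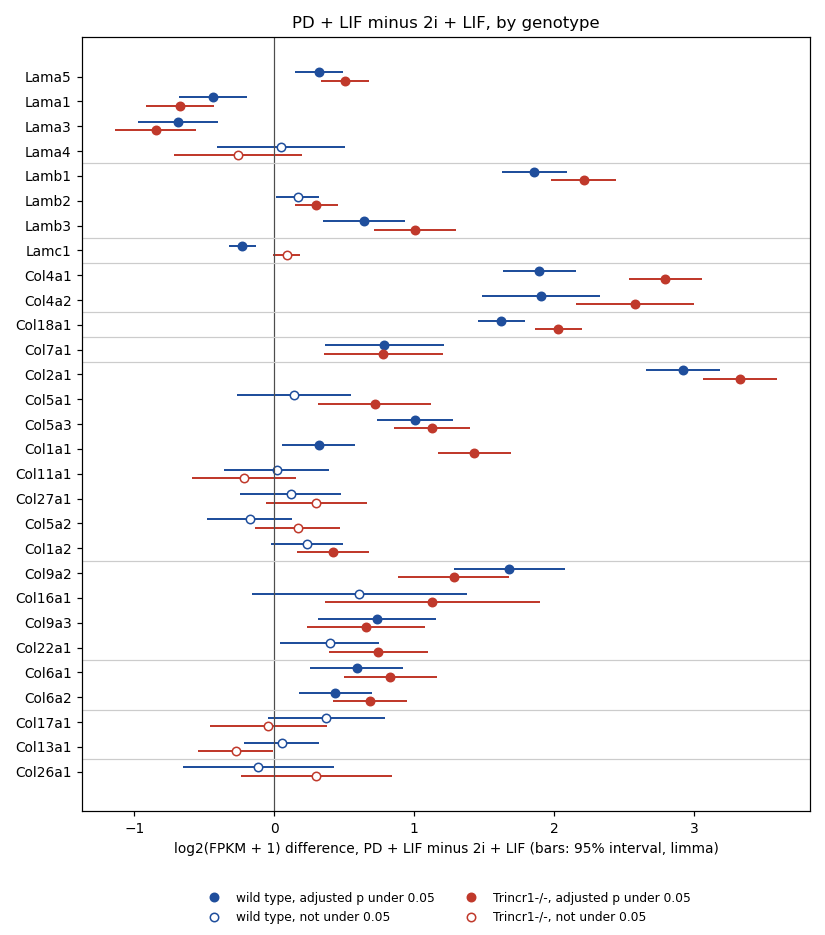
Difference in log2(FPKM + 1) between PD + LIF and 2i + LIF for 29 members, in wild-type (blue) and Trincr1-/- ESCs (red), with 95% intervals from limma and filled points for an adjusted p under 0.05. Col2a1 lies furthest to the right, at 2.92 and 3.33, and Lama1 and Lama3 lie to the left of 0, filled, in both genotypes.

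Loss of Trincr1 in 2i + LIF left few chain mRNAs called. Of the 30 members, 0 were higher (0.35% of all genes were higher) and 1 was lower (0.855% of all genes), Col18a1, which fell by 0.54 (SE 0.07, limma adjusted p = 0.0201) to 0.671 times the wild-type mean. At an unadjusted p under 0.05, 5 members passed (14.6% of all genes). The Col18a1 call was lost when any of the 8 samples was left out, without the variance trend and with only the 4 samples compared, with the difference between -0.61 and -0.46 and an adjusted p of up to 0.225 over the alternatives, while both Trincr1-/- samples were below both wild-type samples. For Lamc1, whose replicates did not overlap between genotypes either, the difference of 0.15 ± 0.04 did not pass (limma adjusted p = 0.172). Samples of the genotypes did not overlap for 16 of the 30 members in 2i + LIF and for 24 in PD + LIF. The share of all genes was not counted, so a lack of overlap is a description only.

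In PD + LIF, loss of Trincr1 was accompanied by higher levels of 6 chain mRNAs, of both laminin and collagen. The 6 members were Lamc1, Lamb1, Col4a1, Col2a1, Col5a1 and Col1a1 (6.29% of all genes were higher), and 0 members were lower (5.77% of all genes), where 10 members had an unadjusted limma p under 0.05 (28.5% of all genes). The median difference was 0.23 over the members and 0.01 over all genes, and 23 of the 30 members had a positive difference. The share of all genes with a positive difference was not counted. Col1a2 and Col6a2 passed the cutoff only through Trincr1-/- samples, so this median and this count are a description only. The genotype comparison in PD + LIF shares the wild-type samples with the medium comparison above, and the Trincr1-/- samples with that in Trincr1-/- ESCs.

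Of the laminin chains, the levels of Lamc1 and Lamb1 in PD + LIF, given above, did not overlap between the genotypes. Lamc1 was higher in Trincr1-/- ESCs by 0.47 ± 0.04 (limma adjusted p = 0.00254), or 1.39 times the wild-type mean. Lamb1 was higher by 0.48 ± 0.10 (adjusted p = 0.0273), or 1.41 times. Lamb2 differed by 0.23 ± 0.07 and did not pass (adjusted p = 0.0646), and Lama5 by 0.12 ± 0.07 (adjusted p = 0.314). The summed laminin β chains were at 31.6 ± 0.738 FPKM in wild-type ESCs (SD, n = 2) and at 41.8 ± 1.69 FPKM without Trincr1, while the α chains were at 30.6 ± 0.263 and 31.8 ± 1.12 FPKM.

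Of the collagens, Col4a1 was higher in Trincr1-/- ESCs by 0.69 ± 0.11 (limma adjusted p = 0.0114), or 1.69 times the wild-type mean. Col4a2 was 1.39 times the wild-type mean, and its difference of 0.44 ± 0.18 did not pass (adjusted p = 0.159), with wild-type replicates at 5.23 and 7.95 FPKM. Col2a1 was higher by 0.76 ± 0.11 (adjusted p = 0.00863), or 1.77 times.

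Col1a1, a chain of collagen I, the main fibrillar collagen of connective tissue, was at 0.144 and 0.115 FPKM in wild-type and at 0.0715 and 0.0682 FPKM in Trincr1-/- ESCs in 2i + LIF. Its level in PD + LIF was 0.373 and 0.446 FPKM in wild-type and at 1.95 and 1.82 FPKM in Trincr1-/- ESCs, which did not overlap. The difference in PD + LIF was 1.03 ± 0.11 (limma adjusted p = 0.0037), or 4.60 times the wild-type mean, the largest ratio among the 6 members called, at a level of at most about 111 fragments per sample. Its partner chain Col1a2 was at 0.305 and 0.265 FPKM in wild-type and at 0.531 and 0.493 FPKM in Trincr1-/- ESCs, and the difference did not pass.

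Col5a1, a chain of the collagen V that starts fibrils, was at 1.88 and 2.10 FPKM in wild-type and at 2.69 and 1.75 FPKM in Trincr1-/- ESCs in 2i + LIF. The level in PD + LIF was 2.14 and 2.46 FPKM in wild-type and at 4.76 and 3.76 FPKM in Trincr1-/- ESCs, without overlap. The difference of 0.67 ± 0.17 was just past the threshold (limma adjusted p = 0.0492) and was lost under 12 of 16 alternatives. Col9a2 was lower in Trincr1-/- ESCs in PD + LIF, at 6.25 and 5.66 FPKM against 9.92 and 7.75 FPKM, with a difference of -0.49 ± 0.17 that did not pass (adjusted p = 0.107).

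The 6 calls differed in how far they rested on single samples. Lamc1 and Col1a1 passed with any 1 of the 8 samples left out. Col2a1 did not pass without replicate 1 of wild type or of Trincr1-/- in PD + LIF, Col4a1 not without either wild-type replicate or Trincr1-/- replicate 1 in PD + LIF, and Lamb1 not without any of the 4 samples in PD + LIF, with adjusted p-values of up to 0.0691, 0.0895 and 0.128 over the alternatives. With only the 4 samples in PD + LIF fitted, 3 members passed, and 316 genes in all against 1861.

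**Figure D3:**
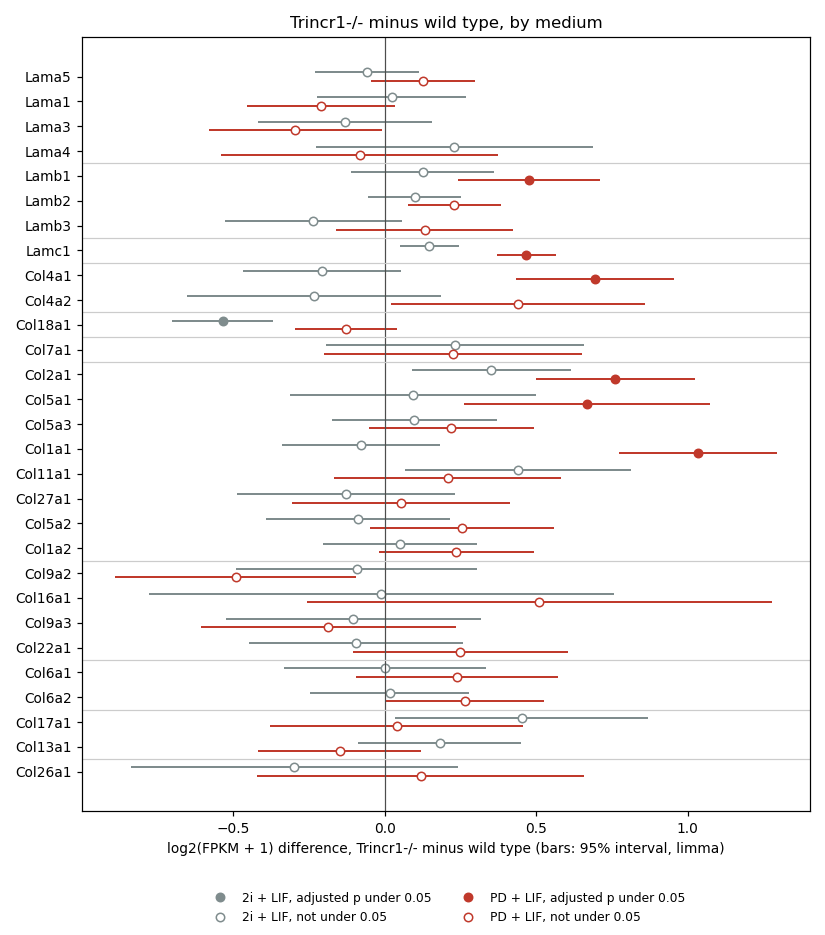
Difference in log2(FPKM + 1) between Trincr1-/- and wild-type ESCs for 29 members, in 2i + LIF (grey) and PD + LIF (red), with 95% intervals from limma and filled points for an adjusted p under 0.05. The 6 filled red points lie between 0.47 and 1.03, and the filled grey point is Col18a1 at -0.54.

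Whether loss of Trincr1 acted differently in the 2 media was tested as an interaction. It was positive for 3 members (0.992% of all genes were positive and 0.817% negative), namely Lamc1, Col4a1 and Col1a1. For Col4a1 the genotype difference was -0.21 ± 0.11 in 2i + LIF and 0.69 ± 0.11 in PD + LIF, and the interaction was 0.90 ± 0.16 (limma adjusted p = 0.0429). For Col1a1 it was 1.11 ± 0.16 (adjusted p = 0.028) and for Lamc1 0.32 ± 0.06 (adjusted p = 0.049). No interaction call of a member held when any 1 of the 8 samples was left out, and over the alternatives the adjusted p reached 0.153 for Col4a1, 0.107 for Col1a1 and 0.151 for Lamc1. For Col18a1, Lamb1, Col2a1 and Col5a1 the interaction did not pass (adjusted p = 0.0954, 0.238, 0.222 and 0.262).

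By matrix type, summed collagen mRNA was higher in PD + LIF in both genotypes. The summed level of the 21 collagen chains was 26.5 and 28.6 FPKM in wild-type and 21.8 and 23.5 FPKM in Trincr1-/- ESCs in 2i + LIF. In PD + LIF it was 95.2 and 99.98 FPKM in wild-type and 115 and 109 FPKM in Trincr1-/- ESCs. The 9 laminin chains summed to between 129 and 145 FPKM in 3 of the groups and to 173 and 176 FPKM in Trincr1-/- ESCs in PD + LIF, the only group that stood apart. These sums are led by Col18a1 and Lamc1 and were not tested.

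**Figure D4:**
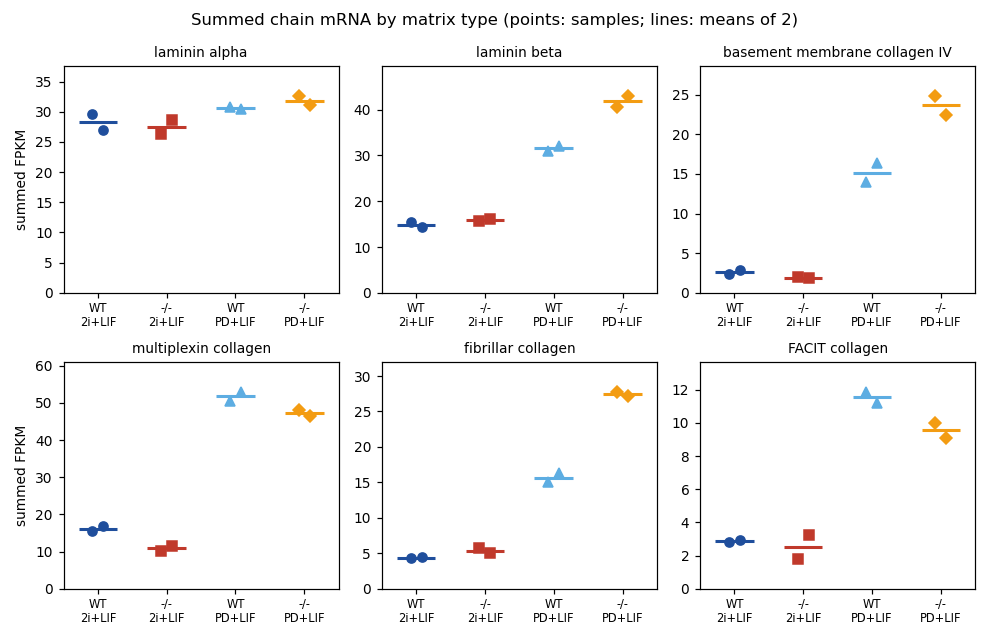
Summed FPKM of the members of 6 matrix types, with 1 point per sample and a line at the mean of the 2 samples of each group, on axes that start at 0. Laminin β, collagen IV, multiplexin, fibrillar and FACIT sums are higher in PD + LIF in both genotypes, and the laminin α sum lies between 26.3 and 32.6 FPKM in all 8 samples.

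Summed markers of cells that make much matrix were also higher in PD + LIF. Primitive and parietal endoderm secretes laminin and collagen IV, and the summed level of 10 of its markers was 1.48 to 2.14 FPKM in wild-type and 1.24 to 1.84 FPKM in Trincr1-/- ESCs in 2i + LIF. In PD + LIF it was 5.21 to 6.03 FPKM in wild-type and 8.18 to 8.86 FPKM in Trincr1-/- ESCs. Gata4 reached 2.498 FPKM, Dab2 2.82 FPKM and Foxa2 1.86 FPKM, whereas the defining factors Gata6 and Sox17 were at most 0.128 FPKM in any sample. In wild-type ESCs, the means of Sox7, Sox17 and Cubn were lower in PD + LIF, against higher means of the other markers. With the medium, 2 of 5 tested markers were called higher in wild-type ESCs (30.9% of all genes) and 5 in Trincr1-/- ESCs (29.6% of all genes). Of the 5 of these 10 markers that were tested, Foxa2 rose without Trincr1 in PD + LIF (0.90 ± 0.17, limma adjusted p = 0.0182, where 6.29% of all genes were higher), whereas 4 did not pass. Of the 6 pluripotency markers, 4 were lower by genotype in PD + LIF (5.77% of all genes were lower), Esrrb, Nanog, Sox2 and Pou5f1, with differences of -0.57, -0.47, -0.29 and -0.20.

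Fibroblasts make fibrillar collagen, and the summed level of 10 fibroblast markers was 0.864 to 1.39 FPKM in 2i + LIF and 9.97 to 16.3 FPKM in PD + LIF. Acta2, an actin shared with smooth muscle, and Thy1 gave most of that sum. Of 4 tested markers, these 2 were called higher with the medium in each genotype (30.9% of all genes in wild-type and 29.6% in Trincr1-/- ESCs). The other tested markers, Fbn1 and Pdgfrb, did not pass. Dpt was at 0 in all 8 samples, and Dcn, Lum, Prrx1 and Twist2 were at most 0.0887 FPKM. Pdgfrb, Postn and Fbn1 were at most 0.474 FPKM. The part of either cell type in the levels of the chain mRNAs was not tested.

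Genes that act on the chains after transcription were compared by list. Of 15 tested genes for chain modification and folding, 4 passed as higher without Trincr1 in PD + LIF (6.29% of all genes) and 0 as lower (5.77% of all genes), and these shares apply to each list that follows. Serpinh1, the collagen chaperone HSP47, was at 63.9 and 71.5 FPKM in wild-type and at 109 and 99.0 FPKM in Trincr1-/- ESCs (0.62 ± 0.08, limma adjusted p = 0.00551). Fkbp10, a prolyl isomerase of the endoplasmic reticulum that folds collagen, was at 2.74 and 2.58 FPKM against 6.80 and 6.24 FPKM (1.04 ± 0.20, adjusted p = 0.0209). Leprel4 was the third of the largest rises (0.56), and P4hb, the β subunit of prolyl hydroxylase, was the other gene called.

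With the medium, 8 of these 15 genes were higher and 3 lower in PD + LIF in wild-type ESCs, against 30.9% and 21.3% of all genes, so the lower count was near that of genes at large. P4ha1, the catalytic subunit of collagen prolyl hydroxylase, was at 8.66 and 7.75 FPKM in 2i + LIF and at 26.9 and 26.6 FPKM in PD + LIF (1.59, limma adjusted p = 1.32e-05), and Leprel2, a prolyl hydroxylase of another position, rose by 1.12. The 3 that fell were Crtap, by 0.86, P4hb, by 0.78, and Ppib, by 0.62. In Trincr1-/- ESCs 9 genes were higher and 5 lower (29.6% and 20.3% of all genes), led by P4ha2 (2.26) and Fkbp10 (1.77). In 2i + LIF, 0 of the 15 passed between genotypes with limma (0.35% of all genes were higher and 0.855% lower). At an unadjusted limma p under 0.05, 5 passed (14.6% of all genes). Among these were Serpinh1 with a difference of 0.39 (limma adjusted p = 0.0727) and P4ha1 with 0.33 (adjusted p = 0.13). For the lists below, the shares by genotype in 2i + LIF are the same.

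Of 9 tested genes for processing and crosslinking, 3 rose and 1 fell without Trincr1 in PD + LIF. Bmp1, the protease that cuts the C-terminal propeptide of fibrillar procollagens, was at 1.28 and 1.03 FPKM in wild-type and at 2.88 and 2.65 FPKM in Trincr1-/- ESCs (0.80 ± 0.13, limma adjusted p = 0.0108). Of its enhancers, Pcolce2 was higher by 1.22 ± 0.15 (adjusted p = 0.00519) and Pcolce lower by 0.34 (adjusted p = 0.0409). Pcolce2 was at 11.8 and 15.99 FPKM in wild-type ESCs in 2i + LIF and at 4.30 and 5.37 FPKM in PD + LIF, a fall of 1.34 (limma adjusted p = 0.00033). The Trincr1-/- samples had 15.8 and 14.8 FPKM and 11.97 and 13.2 FPKM (-0.26 with the medium, adjusted p = 0.187), and the interaction of 1.08 did not pass (adjusted p = 0.058). Loxl3, a crosslinking lysyl oxidase, was higher by 0.75. With the medium, Pcolce also fell from 118 and 118 FPKM to 32.7 and 38.0 FPKM in wild-type ESCs, while Adamts14, which cuts the N-terminal propeptide, and Loxl2 rose by 1.75 and 1.29.

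Of 14 other basement membrane proteins tested, 2 rose and 2 fell without Trincr1 in PD + LIF. Pxdn, the peroxidase that crosslinks collagen IV, was at 0.289 and 0.270 FPKM in wild-type ESCs in 2i + LIF and at 7.39 and 7.89 FPKM in PD + LIF. The Trincr1-/- samples had 0.396 and 0.304 FPKM and 14.7 and 13.2 FPKM, so in PD + LIF Pxdn differed by genotype (0.79 ± 0.11, limma adjusted p = 0.00802) as well as by medium (2.76 in wild-type ESCs). Sparc, a collagen-binding protein, was higher by 0.31. Fn1, fibronectin, and Nid2, a nidogen that links laminin to collagen IV, were lower by genotype in PD + LIF, with -0.56 ± 0.06 (adjusted p = 0.00305) and -0.26 ± 0.05 (adjusted p = 0.0166), and both had an interaction that passed (-0.76 and -0.48). Over all genes, interaction calls numbered 279, against 39 with the replicate number as a block. Whether those of Fn1 and Nid2 held under the alternatives was not examined gene by gene. In 2i + LIF, Hspg2, the gene of perlecan, was higher in Trincr1-/- ESCs by 0.54 ± 0.06 (adjusted p = 0.0112), the only one of the 14. With only the 4 samples in 2i + LIF fitted, 0 genes in all passed by genotype, so this call was lost.

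By medium, Nid1, the other nidogen, was at 52.9 and 51.5 FPKM in wild-type ESCs in 2i + LIF and at 24.4 and 23.0 FPKM in PD + LIF, a fall of 1.11 (limma adjusted p = 4.47e-05), and Egfl6 and Sparc fell by 1.84 and 0.54. The largest rises after Pxdn were those of Frem2, by 2.10, and Tinagl1, by 1.46. In all, 9 of the 14 were higher and 3 lower in wild-type ESCs, and 7 higher and 4 lower in Trincr1-/- ESCs. Of all genes, 30.9% were higher and 21.3% lower in wild-type ESCs, and 29.6% and 20.3% in Trincr1-/- ESCs.

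Of 10 tested receptors for collagen or laminin, 4 rose and 1 fell without Trincr1 in PD + LIF. Bcam, a receptor for laminin α5, was at 41.2 and 51.0 FPKM in wild-type and at 65.2 and 58.2 FPKM in Trincr1-/- ESCs (0.42 ± 0.10, limma adjusted p = 0.0409). Ddr1, a receptor kinase for collagen, was higher by 0.36, Dag1, dystroglycan, by 0.27, and Itgb1, the shared β1 integrin subunit, by 0.18. Itga6, the α subunit of a laminin-binding integrin, was lower by genotype in both media, with -0.49 ± 0.07 in 2i + LIF and -0.27 ± 0.07 in PD + LIF (adjusted p = 0.0203 and 0.0404). The call in 2i + LIF was lost with only the 4 samples of that medium fitted, where 0 genes passed.

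Itga3, the α subunit of another laminin-binding integrin, was at 9.26 and 7.43 FPKM in wild-type and at 3.30 and 3.31 FPKM in Trincr1-/- ESCs in 2i + LIF (-1.11 ± 0.12, limma adjusted p = 0.0112). That call, too, was lost with only the 4 samples in 2i + LIF fitted. Without CHIR99021 Itga3 was at 10.4 and 12.3 FPKM against 11.3 and 10.7 FPKM, so the genotypes overlapped, and the interaction passed (1.07 ± 0.17, limma adjusted p = 0.0368). As for Fn1 and Nid2, whether this interaction held under the alternatives was not examined for the single gene.

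Of 9 tested matrix proteases and inhibitors, 3 rose without Trincr1 in PD + LIF and 0 fell. Mmp14, a membrane collagenase, was at 9.38 and 8.89 FPKM in wild-type and at 17.1 and 14.8 FPKM in Trincr1-/- ESCs (0.74 ± 0.09, limma adjusted p = 0.00575). Its substrate Mmp2, a protease that cuts collagen IV, and Timp2, their common partner, were higher by 0.58 each. These genes also rose with the medium in wild-type ESCs, Mmp2 by 2.16 and Timp2 by 2.06, where 8 of the 9 were higher (30.9% of all genes) and Timp1 fell by 0.65.

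The last question was which chain mRNAs were recovered with TRIM71, an RNA-binding protein. The deposited table holds 1 FPKM value of the input and 1 of the FLAG immunoprecipitate (IP) for each transcript, so no value has an error. The labels name 2 samples of the input and 2 of the IP. Whether a value pools both samples or comes from 1 of them is not known here. The ratio used the IP as scaled by the authors, 2.25 times the unscaled value. By the labels, input RNA was selected on poly-T beads while IP RNA went directly into cDNA, so the libraries also differ in preparation, and the IP of an empty vector was not analysed here. The depth of the libraries is unknown. Of the 30 members 21 were listed, and 8 of these had an input above 2 FPKM.

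Among those 8, the input level of Lama5 was 26.0 FPKM and its IP level 37.9 FPKM, or 85.2 FPKM after scaling, a ratio of 3.28. It was the only 1 of the 8 above a ratio of 3, which 5.1% of the 9651 transcripts with such an input exceeded, and its ratio ranked 440 among them. For Lamc1 the input was 76.0 FPKM and the scaled IP 92.5 FPKM, a ratio of 1.22. Without scaling, the ratios of Lama5 and Lamc1 were 1.46 and 0.542.

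Among members with an input above 2 FPKM, Lamb2 had a ratio of 0.620 and Lama1 of 0.725, against a median of 0.0571 over the 9651 transcripts. Lamb1, at 5.60 FPKM in the input, Col18a1, at 5.70 FPKM, and Col26a1, at 4.10 FPKM, were listed at 0 in the IP. Of the 566 transcripts with an input between 5 and 6 FPKM, 62.4% were listed at 0 in the IP, so such a 0 was common at this level.

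Of the 13 listed members with a lower input, 4 had IP reads. Col4a2 had an input of 0.8 FPKM and an IP of 13.6 FPKM, or 30.5 FPKM after scaling. Given rounding to 1 decimal, its scaled ratio lay between 35.8 and 40.9, and it was 17 without scaling. The input and the scaled IP were 0.8 and 8.40 FPKM for Lama4, 0.4 and 1.90 FPKM for Col4a1, and 0.4 and 0.9 FPKM for Col5a1. These inputs are below the 2 FPKM used above, the 2 chains of collagen IV differed widely in the IP despite their shared start, and the other 9 were listed at 0.

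**Figure D5:**
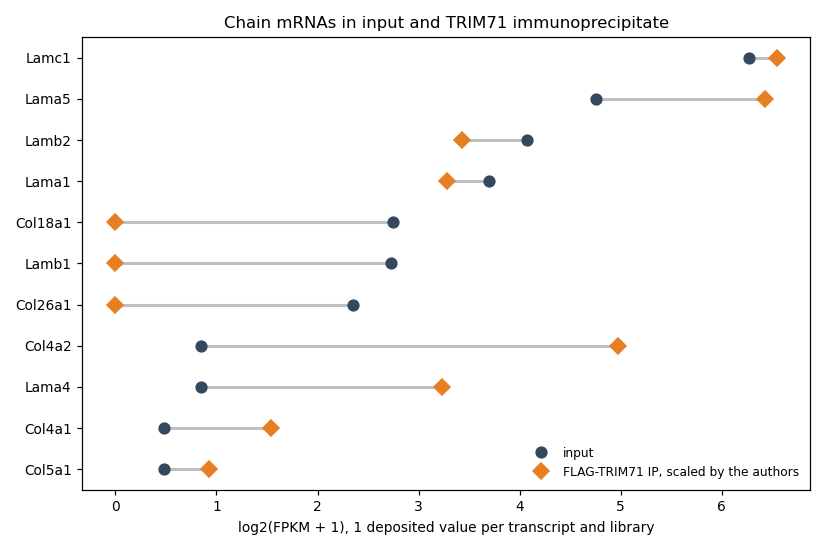
Input (circles) and scaled FLAG-TRIM71 IP (diamonds) of 11 members with an input above 2 FPKM or an IP above 0, as log2(FPKM + 1), with 1 deposited value of the input and 1 of the IP per transcript and no error. The diamonds of Lamc1, Lama5, Col4a2, Lama4, Col4a1 and Col5a1 lie to the right of the circles, and those of Col18a1, Lamb1 and Col26a1 lie at 0.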

How the data were processed

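The authors aligned poly(A) RNA-seq reads and deposited gene-level FPKM values for 8 samples, and transcript FPKM for TRIM71 RIP-seq input and IP, with a signal column in which the authors scaled the IP. STAR 2.5.0 and Cufflinks 2.2.1 are named in the submitters' processing notes, and gene coordinates are of GRCm38 with starts converted to count from 1. A column of the authors' own enrichment fold was not used. Of 41260 entries, 39 gene identifiers with several entries kept the highest mean, and 27 symbols were restored. Log2(FPKM + 1) of 15430 genes with a mean above 0.2 FPKM was fitted with limma 3.58.1 (R 4.3.3), all 8 samples in 1 model with a variance trend and 4 residual degrees of freedom, and p-values were Benjamini-Hochberg adjusted over all genes. The procedure was tested on simulated data. FPKM sums were 497115 to 519651, so no scaling was applied. Per-sample values are given for members past the threshold by genotype or interaction or with a group mean of at least 10 FPKM, other members may be named, and list genes are the up to 3 largest rises and 3 largest falls among those called, per comparison. Genes of 5 or fewer calls were also named after their values were seen. Members and lists were chosen with earlier results of these data known. Same-numbered samples were not paired (correlations of deviations -0.05 to 0.01). Tables and figures used Python 3.11.15, pandas 2.3.3, numpy 2.4.6 and matplotlib 3.10.9. Values of 1 member are not reported here, although the member counts include it. Alternatives are given at the end.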

Additional observations from a re-analysis of the deposited data

Results flagged for a closer look

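For 3 members the difference between Trincr1-/- and wild-type ESCs itself differed between the media in a test of the interaction (limma, adjusted over 15430 genes, n = 2 per group). The difference in PD + LIF minus that in 2i + LIF was 1.11 for Col1a1, 0.90 for Col4a1 and 0.32 for Lamc1 on the log2(FPKM + 1) scale, with adjusted p-values of 0.028, 0.0429 and 0.049. Each of these calls was lost without any 1 of the 8 samples. Groups of 2 samples are too small for a test of single outlying samples.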

How the results depend on the processing

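With 2 samples per group and 4 residual degrees of freedom, calls near the threshold depended on the samples included. With 1 sample left out in turn, a lone sample being assumed to vary like the others, the members called higher by genotype in PD + LIF numbered 2 to 6 (main 6), those lower by genotype in 2i + LIF 0 to 0 (main 1) and those with a positive interaction 0 to 0 (main 3). In the medium comparison the range was 11 to 14 higher and 2 to 4 lower in wild-type ESCs, and 16 to 19 higher and 2 to 3 lower in Trincr1-/- ESCs. With only the 4 samples compared, 3 members were higher by genotype in PD + LIF and 0 lower in 2i + LIF, and without the variance trend 0 were lower in 2i + LIF and 1 had an interaction. The interaction count was 0 with log2(FPKM + 0.1), 1 without a filter on low values and 0 with the replicate number as a block. The replicate block changed no count of members by over 1.5 times otherwise. A mean above 1 FPKM tested fewer genes and fewer members, and 8 members were higher with the medium in wild-type and 11 in Trincr1-/- ESCs. The members from Col26a1, at a mean of 0.903 FPKM, downward were not tested under that cutoff. No medium call of a member still tested was lost, so these lower counts do not show a loss of calls. Quantile normalization and scaling to the same median each gave 4 members lower with the medium in Trincr1-/- ESCs (main 2). Scaling to the same median moved the median of all genes from 0.08 to -0.10 in wild-type ESCs, and Lamc1 in Trincr1-/- ESCs from 0.09 to -0.14. Unscaled, 1 member above the input cutoff had an IP over input above 1 (scaled 2) and 0 above 3 (scaled 1). Of the single-gene values under the alternatives that kept all samples or fitted only 4, 404 kept their direction and side of the threshold, 34 lost and 14 gained a call, and 1 turned. Over all genes, calls by genotype in 2i + LIF numbered 186, against 122 without a filter, 111 with the block, 0 with the 4 samples alone and 40 to 113 with a sample left out. Those in PD + LIF numbered 1861, against 316 with the 4 samples alone and 335 to 1519 with a sample left out. Interaction calls numbered 279, against 138 without a filter, 88 without the trend, 39 with the block and 3 to 34 with a sample left out. The cause of these changes was not tested.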

Other observations

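Several members lie within 1 Mb of each other in GRCm38. Col6a2 and Col6a1 lie 85161 bases apart on chromosome 10 and both rose with the medium in each genotype. Col3a1 and Col5a2 lie 24614 bases apart on chromosome 1, and Col3a1 was below the cutoff while Col5a2 was at 0.361 FPKM. Col4a4 and Col4a3, which lie head to head like Col4a1 and Col4a2 at a gap of 71 bases, were at 0.00427 and 0.00106 FPKM.

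The ratio of Lamc1 to the sum of Lamb1 and Lamb2, which share laminin trimers with it, was between 5.38 and 5.66 in the 4 samples in 2i + LIF and between 2.16 and 2.40 in the 4 in PD + LIF, without overlap. It was not tested.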
